A study of Mus musculus with 12 samples.

Results

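Aminoacyl-tRNA synthetases were followed across 12 single-colour Illumina BeadChip arrays of mouse hepatic stellate cells, the liver cells that store vitamin A and become matrix-producing myofibroblasts after injury. Genes were taken by symbol, as every annotated tRNA synthetase whose name joins a letter for its amino acid to "ars", with the endings 1, 2, a, b or l2, together with Eprs. This gave 36 genes of the 19057 with a probe carrying 1 symbol, 20 of them cytosolic and 16 mitochondrial. Each gene was read from the probe with the highest mean intensity before normalization.

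The arrays formed 4 groups of 3, which were knockout cells with PDGF-B, knockout cells without it, wild-type cells with PDGF-B and wild-type cells without it. Knockout cells came from mice carrying floxed Pdgfrb alleles and a Cre transgene under the GFAP promoter. The cells called wild type came from mice with the same floxed alleles and no Cre. The floxed mice were on the 129S4/SvJae background and were crossed to an FVB Cre line, so the deletion depends on GFAP promoter activity, and cells in which that promoter is silent keep the receptor. All cells were cultured in medium with serum, then received either PDGF-B at 10 ng/ml or the albumin vehicle alone in serum-free medium. The age of the mice and the length of treatment are not given in the labels. A code in each sample title, such as P524, is shared by 1 array with ligand and 1 without. Cells with the same code are called a preparation here, and there were 3 for each genotype (P524, P338 and P522 for knockout, P11, P393 and P530 for wild type). It is not stated what a code marks (animal, pool or culture), so p-values measure only the spread between these samples, which may be technical.

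Each synthetase joins an amino acid to its matching tRNA, the step that supplies protein synthesis with its building blocks and sets the reading of the genetic code. The cytosol and the mitochondrion use separate sets of these enzymes, nearly all encoded by different nuclear genes. The name of a mitochondrial form ends in 2, apart from Tarsl2, a cytosolic relative of threonyl-tRNA synthetase. Gars and Kars each encode both the cytosolic and the mitochondrial enzyme of glycine and lysine, and they are counted with the cytosolic set here. Several cytosolic synthetases sit together in the multisynthetase complex, held by the scaffold proteins encoded by Aimp1, Aimp2 and Eef1e1. When amino acids run short or the endoplasmic reticulum is stressed, the transcription factor ATF4 raises many cytosolic synthetase genes through a DNA element that its dimer with a C/EBP protein binds. PDGF-B, the ligand that drives stellate cells to divide, signals through PI3 kinase and mTORC1, and mTORC1 is known to raise ATF4 in other cell types.

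The values are log2 intensities after background correction and quantile normalization. Probes differ in how brightly they report, so each gene is compared only with itself. The array medians before normalization were 86.2 to 96.2, and 45.8% to 53.2% of probes were above background on an array. The 12 arrays limit the precision. The probe of Pdgfrb, the targeted gene, lay between 6.46 and 7.66 in the means of the knockout preparations and between 6.74 and 7.69 in those of the wild-type preparations. It is not known whether the probe reads the floxed exons, so it does not check the labels. Of 12 stellate and myofibroblast markers, 11 passed the filter and 10 were above background on all 12 arrays. Lrat, the enzyme that stores vitamin A in quiescent stellate cells, was above background on only 2. Macrophage markers were also present, with 9 of 11 above background on all arrays, and so were 6 of 8 mesothelial markers. Of the hepatocyte list, Alb and Apoa1 were above background on 0 arrays, Cyp3a11 and Fgb on 1, Serpina1a on 5, Ttr on 10 and Hnf4a on 12. Of the cholangiocyte list, Epcam was above background on 0 arrays and Krt7 and Sox9 on 12. Of the lymphocyte list, Cd3d and Cd2 were so on 0 arrays, Ms4a1 on 4 and Cd3e on 7. All 6 endothelial markers passed the filter. Lyve1 was above background on 3 arrays, Kdr on 5, Pecam1 on 9, Cdh5 on 11, and Stab2 and Tek on 12.

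Of the 36 synthetases, 34 passed the filter on dim probes, which asked for a signal above background on at least 3 arrays. All 20 cytosolic genes passed and 18 of them were above background on every array. The exceptions were Hars (histidine, 9 arrays) and Yars (tyrosine, 8 arrays). Among the 16 mitochondrial genes 14 passed and 11 were above background on every array, Lars2 (leucine) being so on 8 and Aars2 (alanine) and Nars2 (asparagine) on 11. Hars2 (histidine) and Yars2 (tyrosine) were not well above background on any array and have no measured level here. The probe of Gars (glycine) lay between 12.01 and 12.45 across the 12 arrays, and that of Yars between 5.91 and 6.12. Among mitochondrial genes the probe of Fars2 (phenylalanine) lay between 8.94 and 9.46, and that of Lars2 between 5.92 and 6.13. Differences at Hars, Yars, Lars2, Aars2 and Nars2 are therefore those of dim probes.

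The ATF4 element was looked for in the promoters, and the sequences that hold it are shown so that the ligand values of those genes can be read beside them. The motif TGATGNAA was searched on both strands, with no allowance for mismatches, in RefSeq promoter windows of assembly GRCm38.p6 that run from 250 bases before to 50 bases after each gene's start. Of the 36 synthetase genes, 27 had a window. The motif stood in 5 of 13 cytosolic genes (38.5%) and in 0 of 14 mitochondrial genes, against 4.51% of the 27025 genes with a window, or 3.97% of all 32851 windows. The difference between the sets was not tested. The 5 were Aars (alanine), Gars, Iars (isoleucine), Tars (threonine) and Yars, and Aars held it 2 times. The whole 300-base window of Aars and 60 bases around the match in the other 4 read as follows, 5′ to 3′ on the gene's strand, with capitals marking the motif or its reverse complement.
Aars (chr8:111033592-111033891, plus strand): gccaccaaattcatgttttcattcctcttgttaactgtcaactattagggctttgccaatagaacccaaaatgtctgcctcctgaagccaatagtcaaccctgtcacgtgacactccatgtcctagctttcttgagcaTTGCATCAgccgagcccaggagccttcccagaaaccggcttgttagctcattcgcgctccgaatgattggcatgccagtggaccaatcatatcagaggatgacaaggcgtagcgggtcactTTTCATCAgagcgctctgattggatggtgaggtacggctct
Gars (chr6:55037945-55038004, plus strand): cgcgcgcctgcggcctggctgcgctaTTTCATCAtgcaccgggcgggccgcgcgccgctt
Iars (chr13:49682111-49682170, plus strand): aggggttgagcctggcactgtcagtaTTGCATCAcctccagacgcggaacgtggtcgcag
Tars (chr15:11399640-11399699, minus strand): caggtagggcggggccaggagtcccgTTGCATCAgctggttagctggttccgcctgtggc
Yars (chr4:129189880-129189939, plus strand): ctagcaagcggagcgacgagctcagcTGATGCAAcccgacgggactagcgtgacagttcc
The match was on the strand opposite to the gene in Aars, Gars, Iars and Tars, and on the gene's own strand in Yars. Counted from the first base of the window, the match began at base 221 in Gars, 258 in Iars, 236 in Tars and 254 in Yars, close to the gene's start. A match describes these letters and does not show that a factor binds there.

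PDGF-B was set against vehicle within each genotype to ask what the ligand changed. No synthetase was called in knockout or wild-type cells (limma with Benjamini-Hochberg adjustment over 13277 genes, threshold 0.05). Of all genes tested, 0 (0%) were called in either genotype, whether or not preparation entered as a block. Without P11 the blocked fit called 22 genes in knockout and 155 in wild-type cells, and 0 synthetases in either. At an unadjusted p under 0.05, knockout cells had 1 synthetase higher without the block (Farsb) and 4 higher with it (Aars, Eprs, Farsb and Mars1), against 0.459% and 3.16% of all genes. Wild-type cells had 0 without the block (0.587% of all genes in either direction), and with it 1 higher (Vars, against 2.3% of all genes) and 1 lower (Rars2, against 2.42%). Averaged over the genotypes, 1 was higher without the block (Farsb, against 0.497% of all genes) and 5 with it (the same 4 and Vars, against 3.37%). The smallest adjusted p of a synthetase in the blocked fit was 0.625, in knockout cells.

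Farsb encodes the beta subunit of cytosolic phenylalanyl-tRNA synthetase, an enzyme of paired alpha and beta chains. Its probe read 10.30, 10.22 and 10.43 in knockout cells with PDGF-B (P524, P338 and P522), against 9.89, 10.00 and 10.14 in the same preparations without it. In wild-type cells it read 10.18, 10.06 and 10.25 with PDGF-B (P11, P393 and P530), against 10.23, 10.06 and 10.06 without. All 3 knockout arrays with ligand lay above all 3 without, while the wild-type groups overlapped. The share of all genes with such a gap was not counted. The Farsb difference was 0.31 ± 0.09 in knockout cells (SE, 95% interval 0.10 to 0.51). In wild-type cells it was 0.05 ± 0.09 (-0.16 to 0.25). The knockout difference had an adjusted p close to 1 in limma, and of 0.625 with the preparation as a block. A second Farsb probe gave differences of 0.35, 0.15 and 0.17 in the knockout preparations and of -0.08, 0.17 and 0.20 in the wild-type ones. Both probes were thus positive in every knockout preparation. The alpha subunit gene Farsa, read by a single probe, gave -0.01, -0.01 and -0.28 in the knockout preparations. Its knockout difference was -0.10 ± 0.19 (95% interval -0.52 to 0.32), which leaves its direction unsettled.

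Mars1, the methionyl-tRNA synthetase of the multisynthetase complex, read 9.23, 9.13 and 9.50 in knockout cells with PDGF-B, against 8.88, 8.89 and 9.22 without. It read 9.39, 8.85 and 9.26 in wild-type cells with PDGF-B, against 9.41, 8.82 and 9.35 without. Preparation P522 stood above P524 and P338 in both conditions, so the knockout groups overlapped although all 3 pairs were higher with ligand, by 0.34, 0.24 and 0.28. The knockout difference was 0.29 ± 0.19 without the block (95% interval -0.14 to 0.71) and 0.29 ± 0.06 with it (0.15 to 0.42, limma adjusted p = 0.625). The other Mars1 probe gave smaller values, 0.08, 0.13 and 0.04 in the knockout preparations and -0.07, 0.12 and -0.04 in the wild-type ones.

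Aars, the alanyl-tRNA synthetase whose promoter holds the ATF4 element 2 times, was the only synthetase higher with PDGF-B in all 6 preparations, a pattern found in 1.75% of all genes tested. It read 10.29, 10.30 and 10.58 in knockout cells with ligand, against 10.24, 10.16 and 10.33 without, and 10.37, 10.31 and 10.43 in wild-type cells with ligand, against 10.27, 10.31 and 10.27 without. The pair in P393 was nearly level, at 0.0013, while the wild-type arrays with ligand all lay above those without. The difference averaged over the genotypes was 0.12 ± 0.06 (95% interval -0.02 to 0.25) and, with the block, 0.12 ± 0.05 (0.01 to 0.22, limma adjusted p = 0.75). A second Aars probe, above background on 6 arrays, lay between -0.03 and 0.06 in the 6 pairs.

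The other genes with the motif were each positive in 4 or 5 of the 6 preparations, and whether they moved together was not tested. Of all genes, 45.1% (P393) to 54.1% (P11) were positive in a preparation. Gars was positive in 4 of 6 preparations, from -0.07 in P11 to 0.11 in P524, and Iars in 5 of 6, from -0.01 in P522 to 0.16 in P338. Tars was positive in 4 of 6 and ranged most widely, from -0.44 in P522 to 0.35 in P524, both knockout preparations. Yars, a dim probe, was positive in 5 of 6 and stayed between -0.07 and 0.05.

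**Figure D1:**
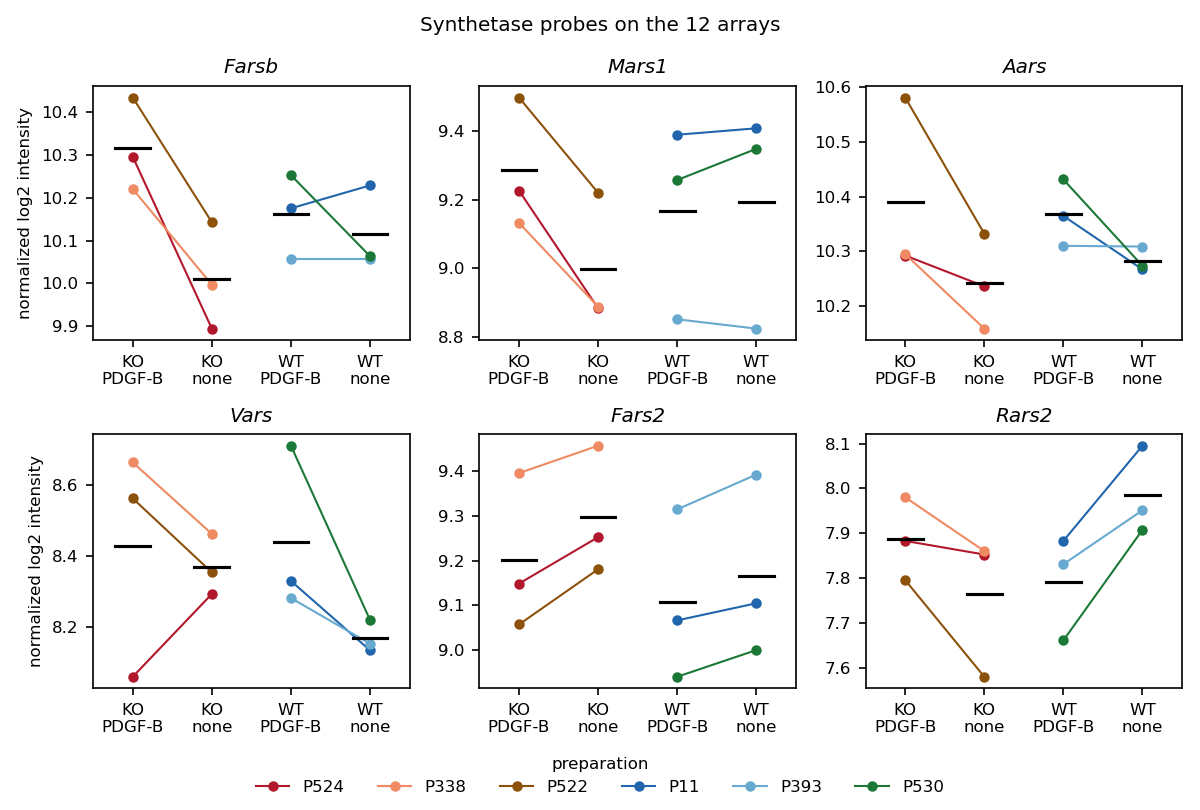
Normalized log2 intensity (vertical axis) of 6 synthetase probes on the 12 arrays, grouped by genotype and ligand, where lines join the arrays of a preparation and black bars are group means. Farsb and Mars1 slope down from PDGF-B to no ligand in all 3 knockout preparations, Fars2 lies lower with PDGF-B in all 6, and Rars2 runs in opposite directions in the genotypes.

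Within the multisynthetase complex, the chosen probes of all 7 measured members had a positive mean ligand difference in knockout cells (median 0.10). In wild-type cells 6 of 7 were positive (median 0.05). Across all genes tested, 48.9% were positive in knockout cells and 49.1% in wild-type cells, both with medians of -0.002. None of the 7 passed the test. In knockout cells the values ran from 0.02 for Qars (glutamine) to 0.29 for Mars1. Eprs, a fused enzyme for glutamate and proline, read 0.16, 0.07 and 0.38 in the knockout pairs and -0.15, 0.16 and 0.21 in the wild-type pairs. Its knockout difference of 0.20 had an SE of 0.21 without the block and 0.09 with it (limma adjusted p = 0.79). Another Eprs probe, above background on 12 arrays, gave -0.18, -0.10 and 0.10 in the knockout pairs. A further one, above background on 10 arrays, gave 0.09, -0.13 and 0.06 there. Rars (arginine) gave 0.18, 0.16 and 0.15 in the knockout pairs, and -0.18, 0.32 and 0.03 in the wild-type pairs, where the range exceeded every knockout value. Lars (leucine), also known as a leucine sensor for mTORC1, averaged 0.10 in each genotype and was negative only in P393. A second Lars probe averaged 0.05 in knockout and 0.02 in wild-type cells. That probe was positive in P393, at 0.15, and negative in P11, P530 and P522. Kars and Iars averaged 0.06 and 0.05 in knockout cells, against 0.04 and 0.09 in wild-type cells.

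The 3 scaffold genes, all measured, were not called. Aimp2 and Eef1e1 had knockout differences of 0.13 and 0.19 and wild-type differences of 0.07 and 0.02, and Aimp1 had -0.07 in knockout and -0.06 in wild-type cells. Their SEs without the block were 0.20 to 0.30, each larger than the gene's own difference.

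Among cytosolic synthetases outside the complex, Vars (valine) had the highest wild-type value. It read 8.33, 8.28 and 8.71 in wild-type cells with PDGF-B, against 8.14, 8.15 and 8.22 without, and these groups did not overlap. The wild-type difference was 0.27 ± 0.16 (95% interval -0.08 to 0.62), or 0.27 ± 0.10 with the block (0.05 to 0.49), with adjusted p-values close to 1. Without P530 it was 0.16. In knockout cells it read 8.06, 8.66 and 8.56 with ligand, against 8.29, 8.46 and 8.35 without, with P524 lower and the other pairs higher. Of 2 further Vars probes, both were negative in P11, at -0.03 and -0.04, where the brightest probe gave 0.20. Nars (asparagine), Wars (tryptophan) and Cars (cysteine) changed sign between preparations of the same genotype, Cars from -0.36 in P11 to 0.48 in P393. Sars (serine) stayed within -0.05 and 0.08 in all 6 pairs.

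Of the mitochondrial forms, 5 of 14 had a positive mean ligand difference in each genotype. Fars2, the mitochondrial phenylalanyl enzyme, was the only synthetase lower with PDGF-B in all 6 preparations, by values from -0.04 to -0.12, and 1.79% of all genes tested had that pattern. Its probe read 9.15, 9.40 and 9.06 in knockout cells with ligand, against 9.25, 9.46 and 9.18 without, and the wild-type pairs differed by -0.04, -0.08 and -0.06. Preparations differed by more than the ligand did, and the averaged difference was -0.08 ± 0.10 without the block and -0.08 ± 0.04 with it (95% interval -0.17 to 0.01). Pars2 (proline) and Lars2 were lower in 3 of 3 knockout pairs, with means of -0.09 and -0.06. Other Pars2 probes gave -0.11, 0.18 and -0.10, and 0.09, -0.10 and -0.22, in those pairs. Sars2 (serine) and Aars2 were lower in 3 of 3 wild-type pairs, with means of -0.15 and -0.04. The wild-type value of Sars2 had a 95% interval of -0.31 to 0.01.

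Counted over preparations, 13 of the 34 synthetases were higher with ligand in 3 of 3 knockout pairs (10 cytosolic and 3 mitochondrial), a pattern of 15.2% of all genes. In 3 of 3 knockout pairs, 4 were lower, against 15.8% of all genes. In 3 of 3 wild-type pairs, 3 were higher (Aars, Iars and Vars), against 10.1%, and 5 were lower (Tarsl2, Aars2, Fars2, Rars2 and Sars2), against 10.8%. Groups with and without ligand did not overlap for Farsb (higher) and Pars2 (lower) in knockout cells. In wild-type cells they did not for Aars and Vars (higher) and for Rars2, Sars2 and Tarsl2 (lower). The share of all genes without such overlap was not counted. Genes read on the same array share its RNA, so these counts describe the arrays and are not independent observations.

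**Figure D2:**
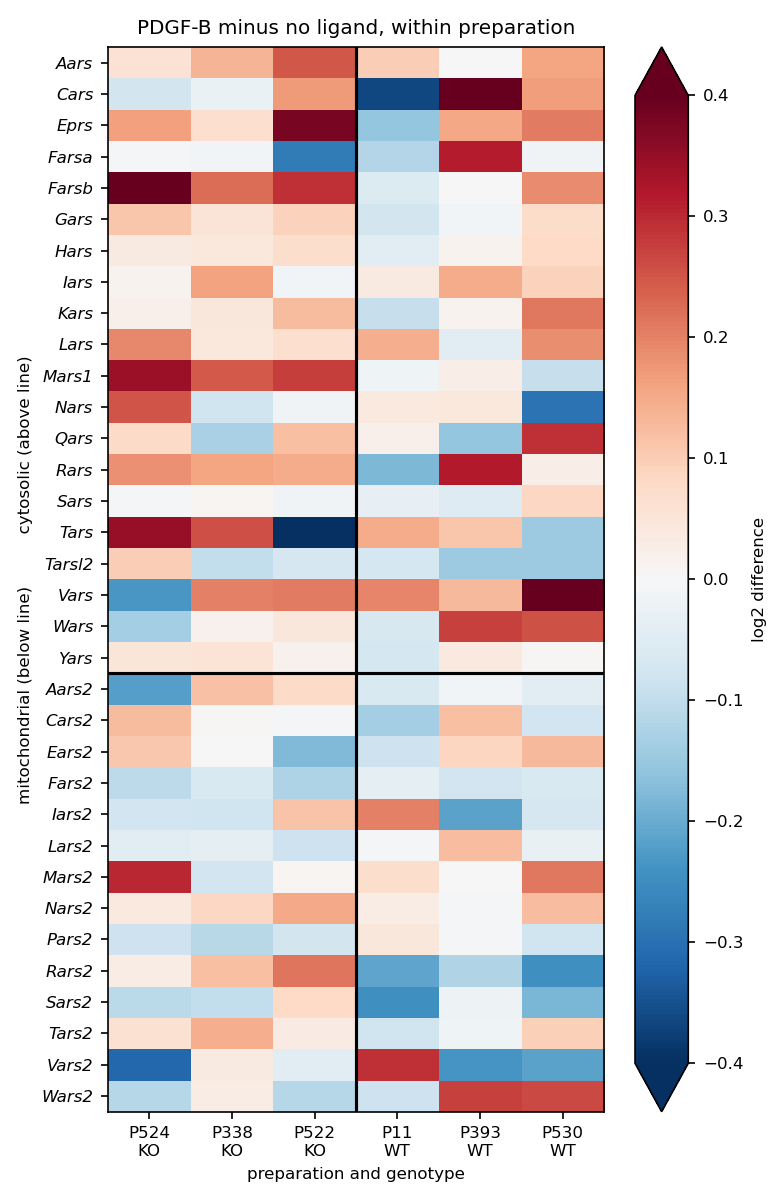
Log2 difference, PDGF-B minus no ligand, within each of the 6 preparations (columns, knockout left of the line) for the 34 measured synthetases (rows, cytosolic above the line), with colours saturating at 0.4. Aars is positive and Fars2 negative in every column, and most other rows change colour between preparations.

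Cytosolic and mitochondrial sets were then compared, without matching their probes for brightness. In knockout cells 16 of 20 cytosolic synthetases had a positive ligand difference (median 0.06) against 5 of 14 mitochondrial ones (median -0.02). In wild-type cells the counts were 14 of 20 (median 0.05) and 5 of 14 (median -0.02). Averaged over the genotypes they were 16 of 20 (median 0.06) and 6 of 14 (median -0.02), where 48.2% of all genes were positive. Leaving Gars and Kars out of the cytosolic set gave medians of 0.05 in knockout and 0.05 in wild-type cells. For 11 amino acids, 1 cytosolic gene was set against 1 measured mitochondrial gene. Phenylalanine, whose cytosolic enzyme has 2 genes, glutamate and proline, whose cytosolic enzymes are fused in Eprs, and Tarsl2 were left out of these pairs. The cytosolic difference exceeded the mitochondrial one for 8 of 11 amino acids in the knockout mean and for 9 of 11 in the wild-type mean. Within single preparations the count was 9 in P524, 8 in P338 and 6 in P522 for knockout, and 7 in P11, 8 in P393 and 7 in P530 for wild type. Alanine was the pair in which the cytosolic gene was ahead in all 6 preparations.

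By preparation, the cytosolic median was 0.07 in P524, 0.05 in P338 and 0.08 in P522 for knockout, and -0.05 in P11, 0.03 in P393 and 0.09 in P530 for wild type. The mitochondrial median was -0.06, 0.002 and 0.001 in the knockout preparations, and -0.05, -0.01 and -0.05 in the wild-type ones. The median of all genes lay between -0.02 and 0.01 in the 6 preparations. P11 was the preparation in which the cytosolic median was negative, with 7 of 20 genes positive, while 54.1% of all genes were positive in it. Under median scaling of the arrays in place of quantile normalization, the cytosolic median in knockout cells became -0.003 while that of all genes became -0.03. In P530 the mesothelial markers had a median ligand difference of -0.88, and this list's part in the result was not tested.

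**Figure D3:**
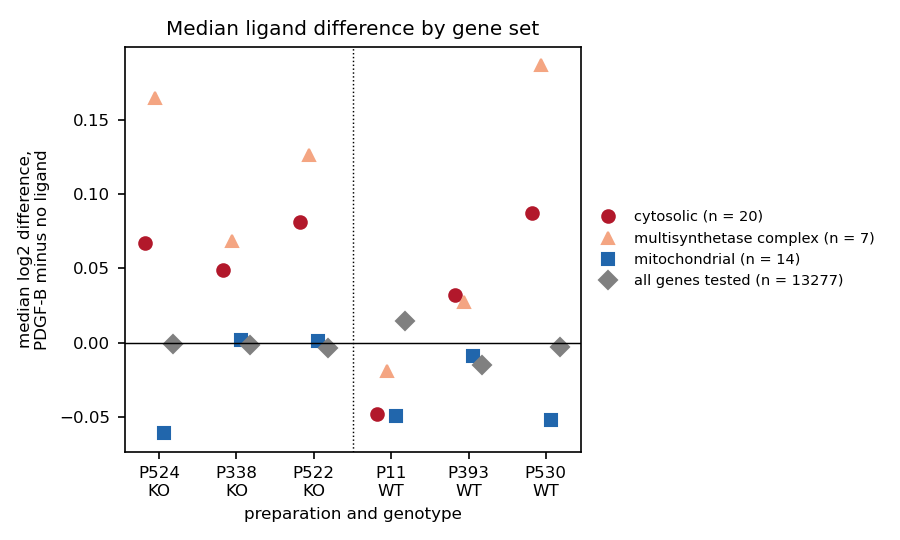
Median log2 ligand difference (vertical axis) in each preparation for the cytosolic set, its multisynthetase complex members, the mitochondrial set and all genes tested. The cytosolic median is above zero in 5 of the 6 preparations and is -0.05 in P11.

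Whether the ligand response depended on genotype was tested as the difference between the knockout and wild-type responses. No synthetase was called, and 0% of all genes were. At an unadjusted p under 0.05, Rars2 (arginine, mitochondrial) was higher without the block, against 0.271% of all genes, and Farsb, Mars1 and Rars2 were with it, against 2.01%. The difference was 0.26 ± 0.13 for Farsb (95% interval -0.03 to 0.55, and 0.04 to 0.48 with the block) and 0.32 ± 0.27 for Mars1 (-0.28 to 0.91, and 0.13 to 0.51 with the block). The adjusted p-values were close to 1 in both fits. The cytosolic set had 13 of 20 positive values (median 0.03) and the mitochondrial set 7 of 14 (median -0.002), beside 50.8% of all genes.

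Rars2 was the only synthetase higher with ligand in 3 of 3 knockout pairs and lower in 3 of 3 wild-type pairs, a pattern of 1.37% of all genes. Its brightest probe read 7.88, 7.98 and 7.80 in knockout cells with PDGF-B, against 7.85, 7.86 and 7.58 without. It read 7.88, 7.83 and 7.66 in wild-type cells with PDGF-B, against 8.10, 7.95 and 7.91 without. The knockout groups overlapped and the wild-type groups did not. The response differed by 0.31 ± 0.14 (95% interval 0.01 to 0.62, adjusted p close to 1). Without the block, no synthetase kept an unadjusted p under 0.05 for the difference in response when any of the 6 preparations was left out. The pattern belonged to that probe alone. The next 2 Rars2 probes gave 0.07, -0.03 and -0.11, and -0.01, -0.08 and -0.06, in the knockout preparations, with wild-type values of -0.27, -0.28 and -0.01, and -0.08, -0.09 and 0.03.

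Knockout cells were compared with wild-type cells under each condition to ask how the genotypes differed. No synthetase was called with or without PDGF-B, where 0.0151% of all genes were called in each (2 genes). Without the ligand the cytosolic set had 9 of 20 positive differences (median -0.02) and the mitochondrial set 7 of 14 (median 0.001), while 53.6% of all genes were positive. With the ligand the counts were 13 of 20 (median 0.02) and 9 of 14 (median 0.05), while 54.4% of all genes were positive. At an unadjusted p under 0.05 no synthetase differed with the ligand, against 1.46% of all genes, or 1.17% with the correlation within preparations. Without ligand, the groups did not overlap for Vars, which was higher in knockout cells by 0.20 ± 0.16 (3.62% of all genes lay wholly higher), and Rars2, which was lower by -0.22 ± 0.10 (2.47% lay wholly lower). Vars read 8.29, 8.46 and 8.35 in knockout cells without ligand, against 8.14, 8.15 and 8.22 in wild-type cells. Rars2 was the 1 synthetase with an unadjusted p under 0.05, without and with the correlation within preparations, against 0.738% and 0.625% of all genes in that direction. Without the block the number of synthetases at that p was 0 without P524 and 0 without P11, and the Rars2 difference was -0.13 without P522. With ligand, the groups did not overlap for Sars2, higher by 0.10 ± 0.07 (3.14% of all genes), and for Farsa and Pars2, lower by -0.33 ± 0.19 and -0.07 (2.01%). Farsa, the alpha subunit of the phenylalanyl enzyme, read 6.31, 6.64 and 6.56 in knockout cells with ligand, against 7.04, 6.78 and 6.69 in wild-type cells, so the gap came mainly from P524 and P11. Eprs had the most negative difference without ligand, -0.36 ± 0.21, with a 95% interval from -0.82 to 0.11. Its readings were 7.36, 7.43 and 7.85 in knockout cells, against 7.84, 7.89 and 7.97 in wild-type cells, and P522 lay among the wild-type values.

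**Figure D4:**
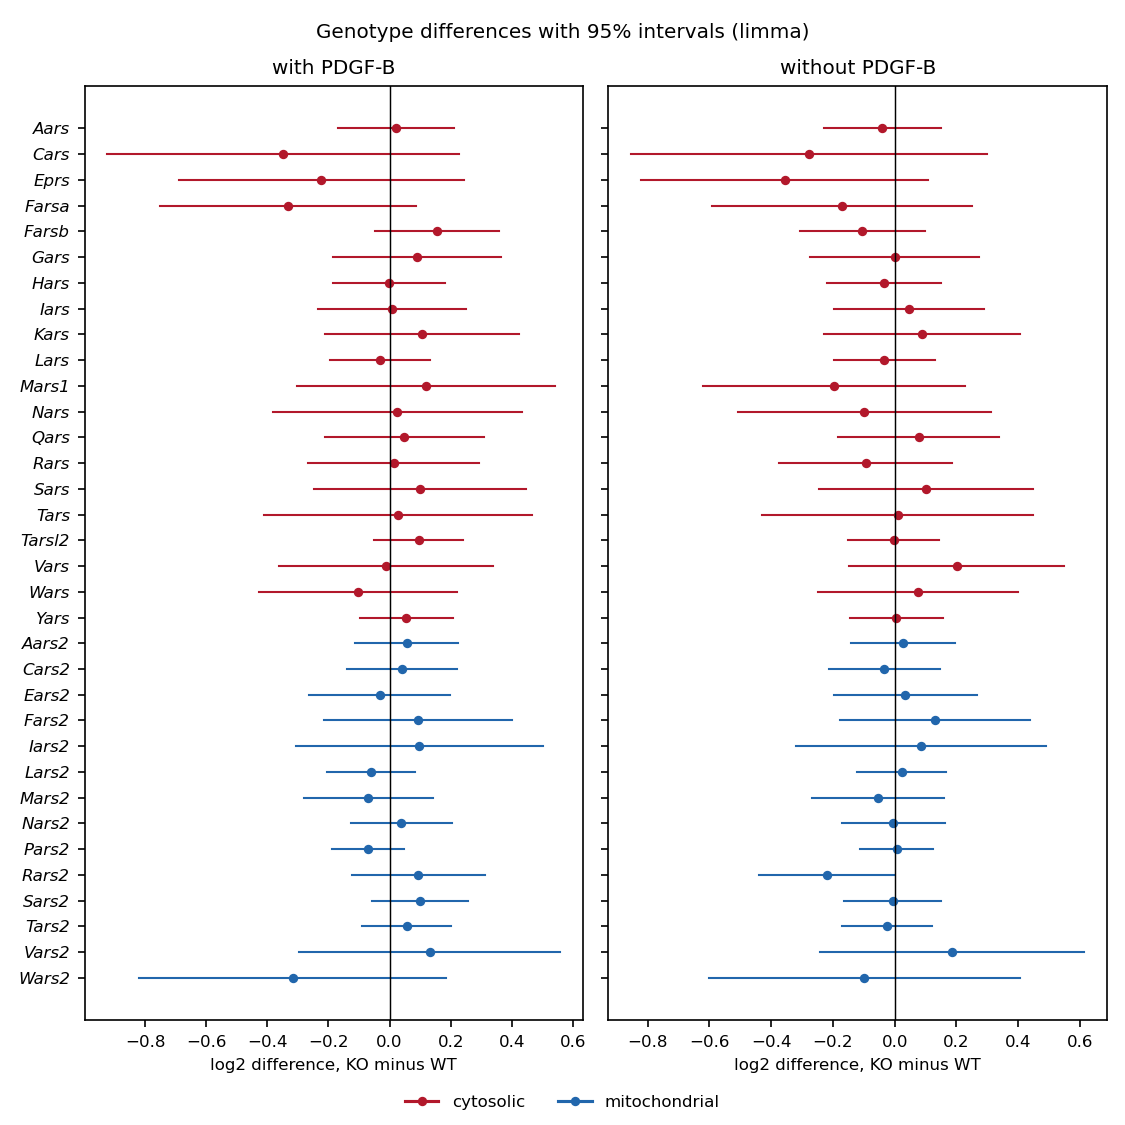
Log2 difference, knockout minus wild type, for the 34 synthetases with PDGF-B (left) and without it (right), with points for the limma estimate and bars for its 95% interval. The bar that leaves zero out is that of Rars2 without PDGF-B, at -0.22, and the widest bars belong to Cars, Wars2, Eprs, Tars and Vars2.

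The intervals set what the arrays could show. In the response of knockout cells the 95% intervals of the 34 synthetases reached at most from -0.57 to 0.71, and in that of wild-type cells from -0.48 to 0.67. A p that misses the threshold does not show that a level was the same.

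Levels also differed between preparations. In a test for differences among preparations of the same genotype, chosen after the data were seen, 14 of 34 synthetases were called (41.2%, limma F-test with Benjamini-Hochberg adjustment over all genes), 10 cytosolic and 4 mitochondrial. Of all genes 45.7% were called, so the synthetases did not stand out. Leaving out P524, the number of synthetases called was 9, and 3653 of all genes were called in place of 6063. The range between preparation means had a median of 0.39 in the cytosolic set, 0.18 in the mitochondrial set and 0.33 over all genes. Probes of these sets were not matched for brightness, so the medians do not show which set was steadier.

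Cars had the widest range, 0.94, which spans both genotypes. The limma F-test within genotypes, which does not measure that range, gave an adjusted p of 0.010. Cars had a mean of 6.09 in P524, 6.26 in P338 and 6.64 in P522 for knockout. For wild type Cars had 7.03 in P11, 6.42 in P393 and 6.48 in P530. Its lowest preparation was a knockout one and its highest a wild-type one, but P522 lay above the other wild-type means. Wars2 (mitochondrial tryptophan) ranged over 0.79, from 6.04 in P524 to 6.83 in P11, and its adjusted p within genotypes was 0.00076 (limma F-test). Farsa ranged over 0.78 between the same preparations. Iars2 (mitochondrial isoleucine) was highest in P524, at 8.33, with the other 5 preparations between 7.71 and 7.91. Mars1 had the smallest adjusted p, 0.00031, with P393 lowest at 8.84 and P11 highest at 9.40. Sars stood apart in P522, at 9.01, with the other 5 between 8.47 and 8.65. The cytosolic probes therefore did not differ in a shared direction between preparations. P524 was lowest for Cars, Farsa and Eprs and highest for Nars and Iars. These levels are those of the chosen probes. Over the arrays, another detected probe correlated with the chosen one at r = 0.08 for Cars and 0.19 for Wars2. The values were 0.26 for Iars2, 0.14 for Sars and 0.63 for Mars1.

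Markers of other cells varied over the same preparations. The mean log2 level of 10 macrophage markers was 9.80 in P524, against 10.64 and 10.69 in the other knockout preparations and 10.56 to 10.77 in the wild-type ones. That of 7 mesothelial markers ranged from 7.43 in P522 to 9.74 in P338 among knockout preparations, and from 8.68 to 9.09 among wild-type ones. The mean of the scaffold genes Aimp1, Aimp2 and Eef1e1 was 9.26 in P524 and 8.52 to 8.83 in the other 5. The part of cell composition in the preparation differences was not tested, and in such bulk samples fewer cells of a type and less RNA per cell cannot be told apart.

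**Figure D5:**
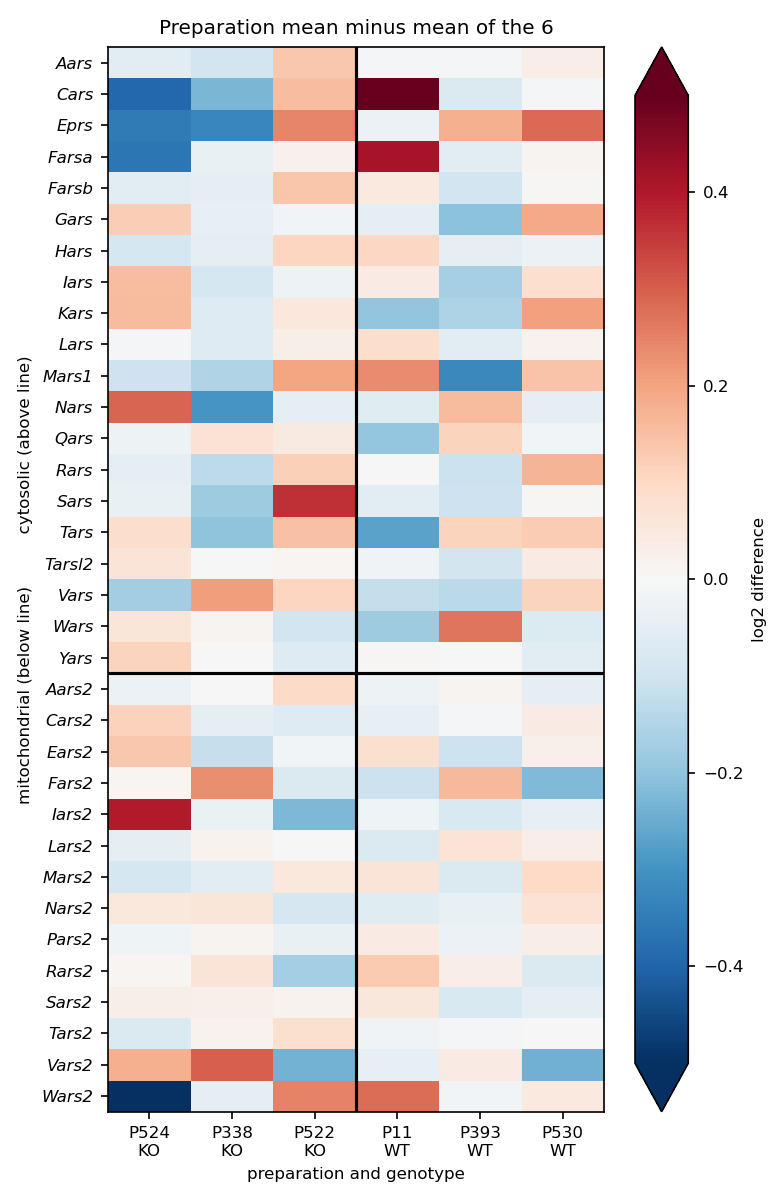
Mean log2 level of each of the 34 synthetases in a preparation (2 arrays) minus the mean of the 6 preparations, with knockout left of the vertical line, cytosolic genes above the horizontal line and colours saturating at 0.5. Cars and Wars2 have the widest contrast, and P524 is low for Cars, Farsa, Eprs and Wars2 but high for Nars and Iars2.

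The genes around the synthetases were counted from lists written from textbook knowledge, and none of their members was called in any comparison. The amino acid response list, which holds Atf4 and its targets, had 16 measured members. In knockout cells 5 of 16 were positive (median -0.04), and in wild-type cells 14 of 16 were (median 0.05), while the difference between the responses was positive for 4 of 16 (median -0.12). By preparation the median was -0.05 in P524, 0.04 in P338 and -0.11 in P522 for knockout, and -0.12 in P11, 0.15 in P393 and 0.16 in P530 for wild type, so both genotypes held both signs. Atf4 read 11.41, 10.65 and 11.18 in knockout cells with PDGF-B, against 11.32, 10.84 and 11.26 without, and 11.32, 11.59 and 11.20 in wild-type cells with PDGF-B, against 11.32, 11.31 and 11.35 without. It was the higher reading with ligand only in P524 and P393. Asns, asparagine synthetase and a classical ATF4 target, read 11.31, 10.78 and 11.27 in knockout cells with ligand, against 11.21, 10.73 and 11.35 without. In wild-type cells it read 11.32, 10.98 and 11.42 with ligand, against 11.35, 10.92 and 11.35 without.

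Enzymes that make serine, glycine, proline and aspartate were positive in 8 of 10 measured members in each genotype, with medians of 0.11 in knockout and 0.13 in wild-type cells. By preparation the median was 0.11 in P524, 0.07 in P338 and 0.11 in P522 for knockout, and -0.18 in P11, 0.28 in P393 and 0.31 in P530 for wild type. The list's largest value was that of Bcat1, the cytosolic branched-chain aminotransferase, at 0.68 ± 0.57 in knockout and 0.57 ± 0.57 in wild-type cells. With the block its SE was 0.21 and its limma adjusted p 0.69 in knockout cells and close to 1 in wild-type cells. Xpot, which exports tRNA from the nucleus, had 0.28 ± 0.17 in knockout cells (SE 0.07 and limma adjusted p = 0.62 with the block), within a tRNA processing list positive in 9 of 19 (median -0.01). Tufm, the mitochondrial elongation factor that carries charged tRNA to the ribosome, had 0.21 ± 0.09 in knockout and 0.10 ± 0.09 in wild-type cells, and all 4 mitochondrial elongation factors were positive in knockout cells against 2 of 4 in wild-type cells. Amino acid transporters were positive in 5 of 10 in knockout and 7 of 10 in wild-type cells, RNA polymerase III and its factors in 6 of 18 and 9 of 18, and cytosolic elongation factors in 5 of 8 and 4 of 8. The 4 genes of mitochondrial amidotransferase and formyltransferase had 1 positive in each genotype, and the synthetase-like and editing genes 4 of 6 in knockout and 2 of 6 in wild-type cells.

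Different probes of a gene often disagreed. Beside the chosen probes, 34 further detected probes belonged to 24 of the synthetase genes, and the other 10 genes had no second detected probe. The correlation of a further probe with the chosen one over the 12 arrays ran from -0.28 to 0.88 and was above 0.5 for 11 of 34. The mean knockout response had the same sign in 17 of 34. Of the genes described in most detail, Farsb kept its direction in both probes in every knockout preparation, and Mars1 did so with smaller values. Rars2, Vars, Aars, Eprs, Lars and Pars2 did not keep theirs throughout.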

How the data were processed

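The 12 Illumina arrays of stellate cell RNA were grouped by the genotype and ligand in the labels. The authors deposited a linear, non-normalized intensity for each probe and array, and a table of normalized intensity, also linear. No label or header used here names the method of the second table. From the deposited intensity, log2 values were computed after normexp background correction (offset 50) and quantile normalization in limma 3.58.1 (R 4.3.3, statmod 1.5.0). No detection p-values were in these tables, so background was estimated by mirroring each array's distribution below its mode, and probes with p under 0.05 on at least 3 of 12 arrays were kept (26219 of 45281). GEO's platform annotation gave 1 symbol for 34885 probes, several for 18 and none for 10378.

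Group means were fitted to all arrays with lmFit and eBayes, and adjusted p-values are Benjamini-Hochberg over 13277 genes. Arrays of a preparation deviated together from their group means (r = 0.59 to 0.93 across genes, each array correlating best with the one sharing its code), so the codes in the titles pair them, and a fit with the preparation as a block, or as a random block between genotypes, is given where it moved a count. Fits were run on simulated data with added changes larger than any synthetase difference between groups here. That run does not show whether differences as small as these would be found. Genes named are the members with the smallest p in each direction of each comparison, those with 1 sign in all preparations, the brightest and dimmest probes of each set and those with the widest range between preparations. Others (Mars1, Iars2, Sars, Bcat1, Xpot and Tufm among them) were chosen after their values were seen. Members and lists were chosen with earlier results of these data known. Promoter sequences are RefSeq's (GRCm38.p6). The alternatives tried changed the background correction, normalization, filter, probe rule, samples fitted, block and prior, and left out each preparation.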

Additional observations from a re-analysis of the deposited data

Results flagged for a closer look

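Rars2 was picked out because its ligand response differed between the genotypes by a test of the difference itself, by 0.314736 on the log2 scale (95% interval 0.01 to 0.62, or 0.11 to 0.52 with the preparation as a block, in limma). The probe was higher with PDGF-B in 3 of 3 knockout preparations and lower in 3 of 3 wild-type preparations. The difference failed the correction over all genes in both fits (adjusted p close to 1 in each), and over the alternatives its smallest adjusted p was 0.315 and its size ran from 0.16 to 0.36. Without the block the number of synthetases at an unadjusted p under 0.05 was 1, Rars2, with all preparations and 0 when any of the 6 was left out. Other Rars2 probes did not show the pattern.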

How the results depend on the processing

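No synthetase was called in any of the 6 comparisons under any alternative run. Of the values recomputed under an alternative, 948 stayed within the spread or on their side of the threshold and 89 moved. With no synthetase difference called, no called difference could change sign, and some medians did change sign, as given below. Among the genes recomputed by name, which do not include Mars1, Farsb had adjusted p-values down to 0.092 for the averaged response in limma. With median scaling the cytosolic median became -0.00315 for the response of knockout cells and -0.063 for knockout against wild type with PDGF-B, and the mitochondrial median became -0.024 for knockout against wild type without PDGF-B and -0.010 with it. Under that scaling the median of all genes was -0.010 to -0.034. With the mean of a gene's probes the mitochondrial median in wild-type cells became 0.00545. The replicate block left every difference as it was and changed no call at the adjusted threshold. Leaving out a preparation, with or without the block, gave mitochondrial medians of -0.042 to 0.037 for the genotype difference in the response. Without the block it gave -0.017 to 0.017 for knockout against wild type without PDGF-B and -0.00388 to 0.051 with it. The number of synthetases that differed between preparations ran from 9 (without P524) to 16 (without P11). Over all genes, the blocked averaged response had 0 calls with every preparation and 228 without P11, with 22 in knockout and 155 in wild-type cells, and none of them was a synthetase. The 2 genes called in each genotype comparison became 0 to 3 under the alternatives. Fitting only the groups compared has no value for the averaged response or the difference in response. Precision is limited by 3 preparations a genotype, and for Hars, Yars, Lars2, Aars2 and Nars2 by signals near background.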
